A study of Mus musculus with 2 samples.

Results

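Transcripts of 6 genes of the retinoid pathway were followed in mouse embryonic stem cells that overexpressed ID2: the cellular retinoic acid binding proteins Crabp1 and Crabp2, the retinoic acid receptors Rara and Rarg, and the retinoid X receptors Rxra and Rxrb. They were taken by gene symbol from a table of 14398 genes, and all 6 were found there, each with a mean over both libraries of at least 50. The 46C line used here is a mouse embryonic stem cell line with a GFP reporter at the neural gene Sox1. Cells were grown on gelatin in serum medium with leukemia inhibitory factor and stood at passages 21 to 24. One library came from cells transfected with a vector (PB-ID2) for overexpression of ID2, an inhibitor of basic helix-loop-helix transcription factors. The other came from control cells with the empty vector (PB). Whether these were clones or pools of transfected cells is not given in the sources used here.

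Retinoic acid is made from retinol, is carried in the cell by binding proteins, and acts on heterodimers of a retinoic acid receptor (RAR) and a retinoid X receptor (RXR), which bind paired half-sites in DNA. Without ligand the heterodimer recruits corepressors such as NCOR1, and with ligand it recruits coactivators. In embryonic stem cells, retinoic acid is widely used to drive exit from pluripotency, and the serum of the culture medium can supply retinol.

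Retinoid genes are themselves often under retinoid control, so the RefSeq promoter windows of the members were read (GRCm38.p6, 250 bases before to 50 bases after a transcription start). Windows were found for 5 of the 6 members, 11 windows in all, and Crabp2 had no entry. The windows of Crabp1 and of the receptors with the largest ratios, Rxra and Rarg, are shown at the most upstream start in the table, 5′ to 3′ on the gene's strand. Capitals mark GC boxes, which read GGGCGG on either strand, and retinoid receptor half-sites on either strand. A half-site was taken as AGGTCA, with its variant AGTTCA, or as GGGTCA, with its variant GGTTCA.
Crabp1, chr9:54764498-54764797, plus strand: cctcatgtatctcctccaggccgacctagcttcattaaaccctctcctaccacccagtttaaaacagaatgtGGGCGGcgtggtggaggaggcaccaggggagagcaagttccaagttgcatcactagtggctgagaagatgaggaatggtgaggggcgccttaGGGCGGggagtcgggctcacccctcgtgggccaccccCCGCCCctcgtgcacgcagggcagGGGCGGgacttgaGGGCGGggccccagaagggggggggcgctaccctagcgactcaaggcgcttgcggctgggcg
Rxra, chr2:27676951-27677250, plus strand: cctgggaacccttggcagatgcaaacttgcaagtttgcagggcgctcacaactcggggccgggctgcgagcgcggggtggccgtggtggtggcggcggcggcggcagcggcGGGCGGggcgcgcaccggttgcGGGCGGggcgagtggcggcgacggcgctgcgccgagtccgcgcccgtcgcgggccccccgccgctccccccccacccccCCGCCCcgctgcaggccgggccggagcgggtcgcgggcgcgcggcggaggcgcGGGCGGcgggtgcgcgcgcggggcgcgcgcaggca
Rarg, chr15:102257473-102257772, minus strand: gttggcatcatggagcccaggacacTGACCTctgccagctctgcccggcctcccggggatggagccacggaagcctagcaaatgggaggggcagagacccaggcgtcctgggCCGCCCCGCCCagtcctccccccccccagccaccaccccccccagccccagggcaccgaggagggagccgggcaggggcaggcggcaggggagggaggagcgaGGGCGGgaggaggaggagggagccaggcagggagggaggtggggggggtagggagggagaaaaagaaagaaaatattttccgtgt

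The Crabp1 window held 5 GC boxes and 0 half-sites. The Rxra window held 4 GC boxes and 0 half-sites, with a GC content of 83.0% and 55 CpG dinucleotides, against medians of 52.7% and 7 over all 32851 promoter windows. The Rarg window held 3 GC boxes, of which 2 overlap by a base, and 1 half-site of the letters AGGTCA on the other strand, 225 bases before the start. Other windows of the members differed: a downstream start of Rxra had 3 half-sites, 0 GC boxes and 1 CpG, and 1 of 4 Rara windows had 4 half-sites. In all, 4 of the 11 windows held a half-site and 8 a GC box. The Rara windows that start at 98937446 and 98937468 overlap and hold the same 4 GC boxes, so these are counted in both. A GC box was found in 35.7% of all windows and a half-site in 43.7%. No window of the members held a direct repeat of these half-sites with a spacer of 1, 2 or 5 bases, spacings known for RAR and RXR binding. Such repeats were found in 0.222%, 0.268% and 0.0974% of all windows. These letters describe the windows alone. Which start the cells used is not known from gene-level values.

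The values are the authors' normalized values, in arbitrary units, with 1 library per group. With no replicates, no difference here carries an error or was tested. A ratio is the log2 of (ID2 value + 1) over (control value + 1). The depth behind the values is unknown, because the values of both libraries follow 1 common distribution. Id2 itself was at 26225 in the ID2 library and 324 in the control library. All 14 listed markers of pluripotent stem cells were present, with sums of 210440 in the ID2 library and 183456 in the control library. In bulk RNA, fewer cells that express a gene and less RNA per cell cannot be told apart.

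Crabp2, which carries retinoic acid to its nuclear receptors, was the member furthest apart. Its value was 30.1 in the ID2 library and 165 in the control library. With 1 added to each value, the ID2 value was 5.34-fold lower, a log2 ratio of −2.42. Crabp1, a related cytosolic protein linked to retinoic acid turnover, was lower too, but by far less. Its value was 1129 in the ID2 library and 1501 in the control library (log2 ratio −0.41). The longest stretch of bases that the annotated Crabp1 and Crabp2 transcripts share is 11 bases, and no other gene overlaps either in RefSeq.

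**Figure D1:**
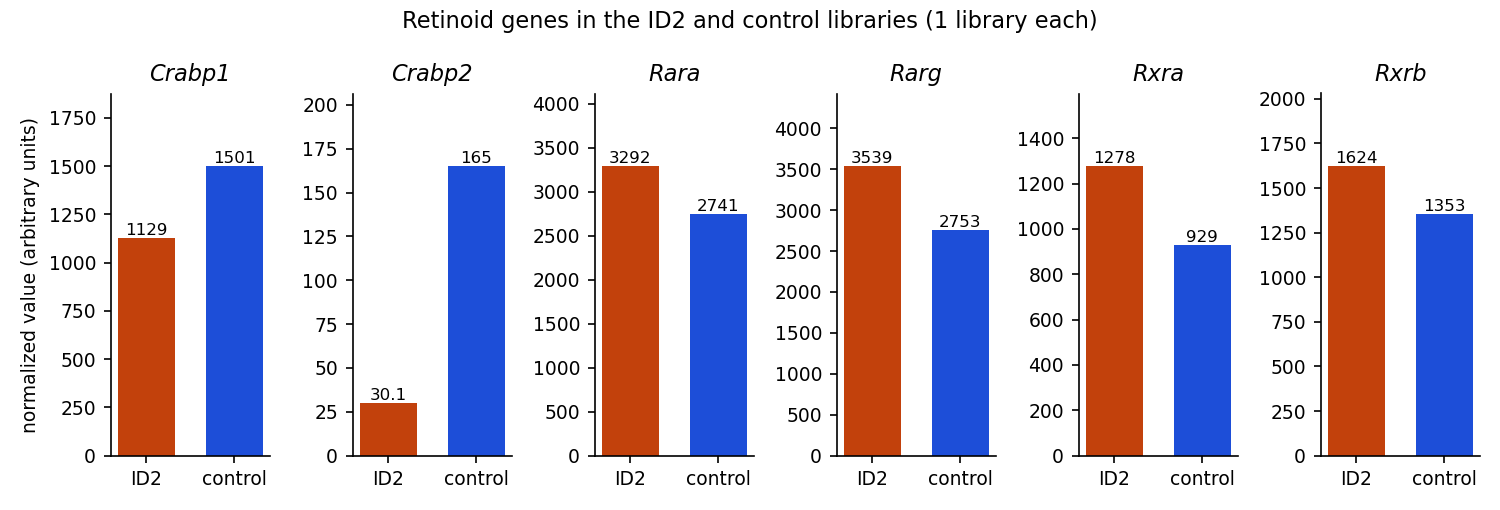
Normalized value (arbitrary units, axes from 0 and different for each gene) of each gene in the ID2 library (orange) and the control library (blue), 1 library each, so no error bars can be drawn. Crabp1 and Crabp2 are lower in the ID2 library, most clearly Crabp2 at 30.1 against 165, and the 4 receptors are higher.

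All 4 receptors had higher values in the ID2 library. Rxra, an obligate partner in many nuclear receptor dimers, was at 1278 in the ID2 library and 929 in the control library (log2 ratio 0.46). Rarg, the RAR found in many undifferentiated embryonic cells, was at 3539 in the ID2 library and 2753 in the control library (0.36). Rara, the most widely expressed RAR, was at 3292 in the ID2 library and 2741 in the control library (0.26), and Rxrb was at 1624 in the ID2 library and 1353 in the control library (0.26). The receptor ratios thus lay close together, between 0.26 and 0.46 with a median of 0.31. In RefSeq, 2 other genes, Gm46294 and Gm22061, overlap Rara, and without strand in the libraries their reads could not be separated from those of Rara.

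The members were chosen by these same values in both libraries, so they are given as a description with no test. Of the 6 members, 1 was at least 2-fold lower, Crabp2, beside 1.86% of the 12679 genes with a mean of at least 50. Of the members, 0 were at least 2-fold higher, beside 2.53% of all genes. A higher value in the ID2 library was found for 4 of 6 members and for 49.8% of all genes. Among 2583 genes within 2-fold of the mean of Crabp2, 6.5% were at least 2-fold lower, and log2 ratios ran from −1.09 at the 5th percentile to 1.23 at the 95th, so Crabp2 lay outside that range. Rxra lay inside the range of its own level, from −0.49 to 0.55 over 4776 genes. Crabp1 (−0.47 to 0.53), Rara (−0.39 to 0.46), Rarg (−0.39 to 0.47) and Rxrb (−0.45 to 0.53) lay inside theirs as well. The authors' deposited table gives Crabp2 a p-value of 0.00647 and an adjusted p of 0.613, and each of the other members an adjusted p of 1. An adjusted p under 0.05 was given there to 26 of 14398 genes (0.181%), and 0 of the 6 members did.

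**Figure D2:**
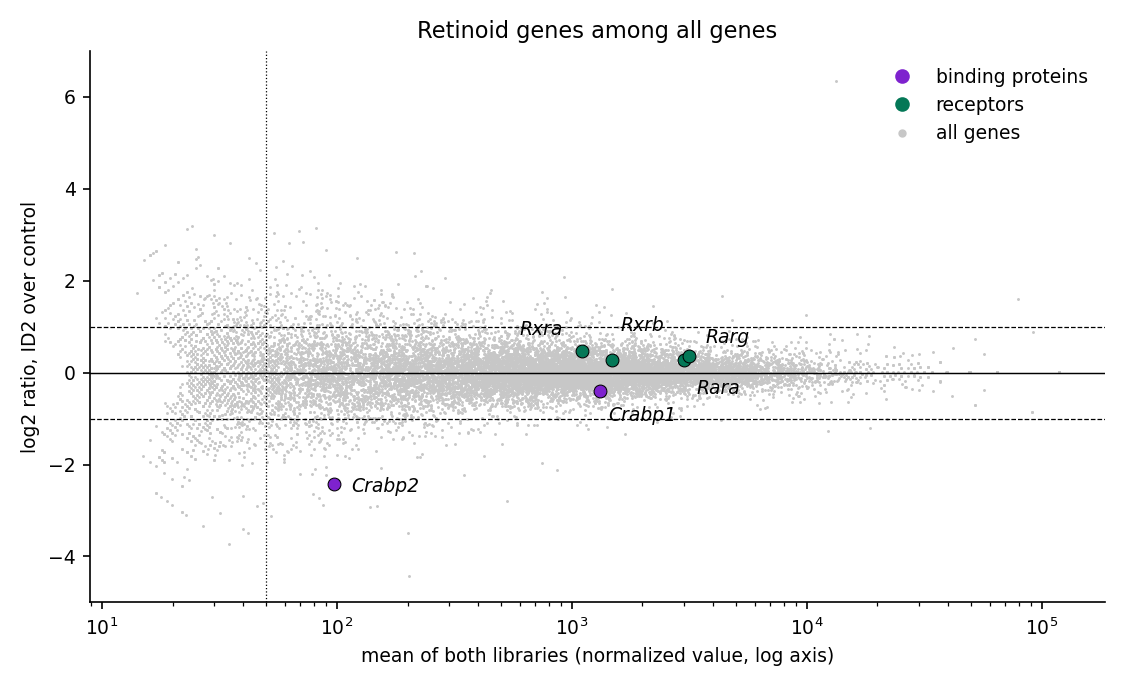
Log2 ratio of ID2 over control against the mean normalized value of both libraries (log axis) for all 14398 genes (grey), the binding proteins (purple) and the receptors (green). Dashed lines mark a 2-fold difference and the dotted line the floor of 50. Crabp2, at −2.42, lies at the lower edge of the genes of its level, and the other members lie inside the cloud.

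Levels of different genes were compared only after division by exon length. Per kilobase of annotated exon, Crabp1 had the highest value in both libraries, 1408 in the ID2 library and 1871 in the control library. Rarg (1043 in ID2, 811 in control) came next, then Rara (769 in ID2, 640 in control), Rxrb (562 in ID2, 468 in control) and Rxra (250.4 in ID2, 182 in control). Crabp2 was last, at 32.4 in the ID2 library and 177 in the control library. The order was the same in both libraries, and also when the longest annotated transcript set the length, an alternative chosen after seeing the data. In the control library Crabp2 and Rxra, at 177 and 182, were nearly level, and whether they differ beyond their spread could not be judged from 1 library.

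Summed per kilobase, both RARs together stood at 1812 in the ID2 library and 1451 in the control library, and both RXRs at 812 in the ID2 library and 650.4 in the control library. The ratio of RARs to RXRs was 2.23 in each. The binding proteins summed to 1441 per kilobase in the ID2 library and 2049 in the control library, and nearly all of that was Crabp1. Receptors over binding proteins, on the same scale, came to 1.82 in the ID2 library and 1.03 in the control library. The ratio of Crabp1 to Crabp2 was 43.5 in the ID2 library and 10.5 in the control library. Sums and ratios across genes depend on the length used, here all annotated exon. They were not recomputed with the longest transcript, which is shorter for each receptor.

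The few retinol carriers and uptake genes in the table had lower values as well. Of 9 listed genes, 4 were in the table and 3 of these reached a mean of 50, all 3 lower, with a median of −0.70 beside 0.00 for all genes. Of all genes with a mean of at least 50, 50.2% had a lower value. The 3 carriers have means within 2-fold of that of Crabp2, where log2 ratios ran from −1.09 (5th percentile) to 1.23 (95th). The lowest of the 3 was at −1.13, just outside that range. Of the 3, 1 was at least 2-fold lower, beside 6.5% of genes within 2-fold of the mean of Crabp2. Rbp4, the retinol carrier of blood, was at 80.4 in the ID2 library and 131 in the control library (−0.70). Rlbp1, a retinal carrier of the eye, differed little, at 70.3 in the ID2 library and 75.6 in the control library (−0.10). Rbp7, under the floor, was at 34.2 in the ID2 library and 39.8 in the control library. Stra6, the cell-surface receptor for Rbp4, was not analysed here.

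The fatty acid binding proteins belong to the same protein family as the CRABPs. The 2 of 10 listed genes that were in the table were both lower. Fabp3 was at 6767 in the ID2 library and 10577 in the control library (−0.64). Fabp5, which can pass retinoic acid to the receptor PPARD, was at 779.8 in the ID2 library and 1023 in the control library (−0.39). Crabp1, Crabp2, Rbp7, Fabp3 and Fabp5, 5 intracellular lipid binding genes of these lists, all had lower values in the ID2 library. Their median was −0.41. They were put together after their values were seen. A lower value was found for 50.2% of all genes with a mean of at least 50.

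Of 31 listed symbols of enzymes that make, reduce or store retinoids, 15 were in the table and 12 reached the floor. Of these 12, 10 had a lower and 2 a higher value in the ID2 library, and the median ratio was −0.10. Of all genes with a mean of at least 50, 50.2% had a lower value, and the counts were not tested. Aldh1a3, which oxidizes retinal to retinoic acid, was at 42.2 in the ID2 library and 91.6 in the control library. With 1 added to each value, it was 2.14-fold lower in the ID2 library. Its mean of 66.9 was close to the floor. Among genes within 2-fold of the mean of Crabp2, a range that holds Aldh1a3, 6.5% were at least 2-fold lower. Dhrs7, a short-chain dehydrogenase, was at 177 in the ID2 library and 343 in the control library (−0.95). Rdh11, a retinal reductase, was at 539 in the ID2 library and 855 in the control library (−0.67). Rdh13 was slightly lower (−0.23) and Rdh12 slightly higher (0.26) in the ID2 library. Rdh10, the main retinol dehydrogenase of the embryo, was at 98.5 in both libraries, and is named after its values were seen. The 3 listed Cyp26 enzymes, which degrade retinoic acid, were not analysed here.

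**Figure D3:**
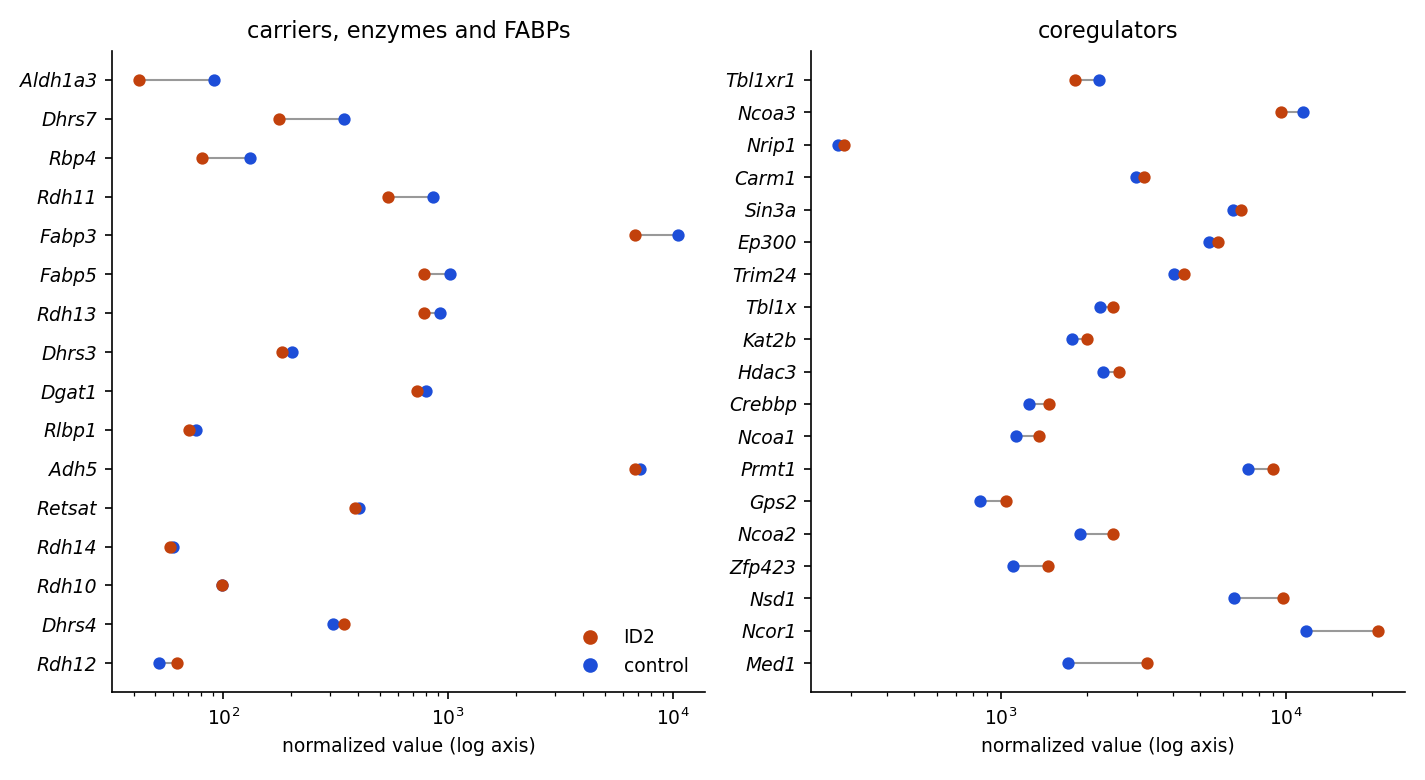
Normalized values (log axes) in the ID2 library (orange) and the control library (blue), 1 library each, joined by a line per gene, for reported genes with a mean of at least 50. On the left are retinol carriers, retinoid enzymes and fatty acid binding proteins (FABPs), where most orange points lie left of the blue, and on the right coregulators of the receptors, where most lie to the right.

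Most listed coregulators that retinoid receptors recruit had higher values, as the receptors did. All 20 listed genes were in the table and reached the floor, 17 higher and 3 lower. Of all genes with a mean of at least 50, 49.8% were higher. The median of the coregulators was 0.18 beside 0.00 for all genes, and the counts were not tested. No coregulator was 2-fold apart. Med1, the Mediator subunit that contacts nuclear receptors, was at 3262 in the ID2 library and 1718 in the control library (0.92). Ncor1, the corepressor of unliganded receptors, was at 20899 in the ID2 library and 11707 in the control library (0.84). Among the lower genes were Tbl1xr1, a corepressor subunit (−0.27), and Ncoa3, a coactivator (−0.26), named after their values were seen. Nsd1, a histone methyltransferase that binds nuclear receptors, was at 9745 in the ID2 library and 6556 in the control library (0.57). Zfp423, a zinc finger cofactor of RAR (0.41), and Ncoa2, a coactivator (0.38), were also higher in the ID2 library. The authors' deposited table gives Med1 an adjusted p of 0.318, Ncor1 0.245 and Nsd1 1.

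Other nuclear receptors pair with RXR as well. Of 13 listed genes, 7 were in the table and 4 reached the floor, 3 higher and 1 lower, with a median of 0.08. The 3 under the floor, named after their values were seen, were Nr1h3, another oxysterol receptor, at 43.2 in the ID2 library and 12.9 in the control library, Vdr, the vitamin D receptor, at 23.1 in the ID2 library and 33.8 in the control library, and Nr4a2, an orphan receptor, at 32.2 in the ID2 library and 25.9 in the control library. Nr1h2, an oxysterol receptor, was at 3861 in the ID2 library and 2800 in the control library (0.46). Ppard, a fatty acid receptor, was at 1895 in the ID2 library and 1731 in the control library (0.13). Thra, a thyroid hormone receptor (0.03), and Nr4a1, a relative of Nr4a2 (−0.03), were close to level. The third RAR and the third RXR, Rarb and Rxrg, were not analysed here.

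Genes known to respond to retinoic acid lay on both sides. Of 42 listed genes, 21 were in the table and 16 reached the floor, 8 higher and 8 lower, with a median of 0.02. Of these, 2 were at least 2-fold lower, among them Crabp2, which belongs to this list too. Egr1, an immediate early factor, was at 357 in the ID2 library and 162 in the control library (1.13). Rai1, a chromatin factor, was at 844 in the ID2 library and 421 in the control library. Egr1 and Rai1 were the 2 genes of this list that were at least 2-fold higher. Gata4, an endoderm factor, was at 76.4 in the ID2 library and 146 in the control library (−0.93). In all, 52 listed pathway genes outside the members reached the floor. Of these, 29 had higher and 23 lower values, their median was 0.08, and 2 in each direction were 2-fold or more apart. Over all genes with a mean of at least 50, 1.86% were at least 2-fold lower and 2.53% at least 2-fold higher. The authors' deposited table gives 0 of these pathway genes an adjusted p under 0.05, and the counts were not tested.

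**Figure D4:**
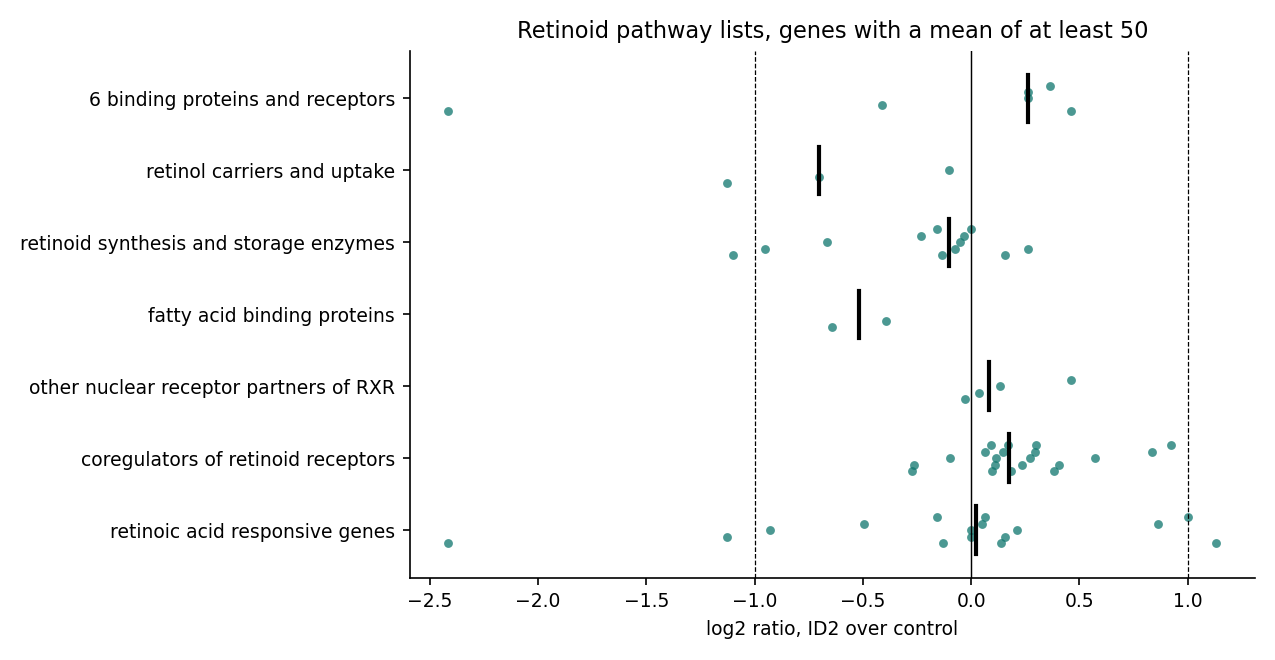
Log2 ratio of ID2 over control for each gene with a mean of at least 50 (points) in the 6 binding proteins and receptors and in 6 pathway lists, with the median of each list as a black bar and dashed lines at a 2-fold difference. Points are spread vertically only to be visible. Medians lie at −0.70 for carriers and 0.18 for coregulators.

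Markers of other cell types were read beside Crabp2, which differentiated cells also express. Of 10 fibroblast and feeder markers 4 were in the table, all lower, with sums of 1342 in the ID2 library and 2114 in the control library. Col1a1 was at 139 in the ID2 library and 339 in the control library (−1.28). Col1a2, under the floor, was at 7.03 in the ID2 library and 39.8 in the control library (−2.34). Thy1 (−0.67) and Pdgfrb (−0.38) were lower by less. Of 9 trophectoderm markers 6 were in the table, 2 higher and 4 lower, with sums of 3406 in the ID2 library and 4922 in the control library. Within these sums, Tfap2c alone was at 2150 in the ID2 library and 3697 in the control library. Krt7, under the floor, was at 6.03 in the ID2 library and 73.6 in the control library (−3.41). Krt8 (0.30) and Eomes (0.42) were the higher ones. The single markers named here were picked after their values were seen. Of 8 neural markers 4 were in the table, 2 higher and 2 lower, with sums of 2546 in the ID2 library and 2001 in the control library. Of 8 endoderm markers 5 were in the table, 4 higher and 1 lower, with sums of 386 in the ID2 library and 333 in the control library. Within the endoderm sums, Sox7 alone was at 127 in the ID2 library and 16.9 in the control library. Their part in the value of Crabp2 was not tested.

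The genes most like each member were found by the distance between log2(value + 1) in the 2 libraries. For Crabp2 these were Lipg, an endothelial lipase, at 31.2 in the ID2 library and 149 in the control library (distance 0.15 log2 units), and the antisense RNA Anxa11os, at 30.1 in the ID2 library and 131 in the control library (0.33). Without strand in the libraries, a count for Anxa11os may hold reads of the gene it lies opposite. Crabp1 was nearest to Cnst (distance 0.029) and Man2b2 (0.037). Among the receptors, Rara was nearest to Fbxl19 (0.031) and Etv4 (0.044), Rarg to Dhx8 (0.019) and Ktn1 (0.027), Rxra to Ntn1 (0.0077) and Trmt1l (0.019), and Rxrb to Plekhg2 (0.0083) and Timm13 (0.017). With 2 libraries this likeness covers only level and ratio.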

How the data were processed

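RNA was sequenced from 2 libraries, 1 per group, made per the labels' protocols from Trizol-extracted total RNA with a TruSeq RNA kit (v2), which does not mark strand. STAR, DESeq and genome build mm9 are named in the submitters' processing notes. No annotation or counting tool is named there. The deposited normalized signal values were whole multiples, within 0.01, of 1 step per library, and the sorted whole numbers were identical in both libraries (0 ranks differed). Values deposited in this form look as if both libraries were given 1 shared distribution before scaling, a step that the sources used here do not state, and depth is unknown. The authors also deposited a fold (ID2 over control), its log2, and p-values, raw and adjusted, which without replicates are quoted only as theirs.

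Ratios were log2 of values with a pseudocount of 1 (Python 3.11.15, pandas 2.3.3). Counts and medians used genes with a mean of at least 50 (12679 genes), and 2-fold was judged by size alone. The ratio and the 2-fold call were checked on simulated data, only for genes of far higher level than Crabp2, and the medians were not checked. Exon and transcript lengths came from GENCODE M21, promoters and overlaps from RefSeq (GRCm38.p6), and no coordinate was converted. Named genes were the 6 members, Id2, up to 5 genes with the largest absolute ratio of each list, carriers under the floor, and the 2 nearest genes of each member. Some listed genes are not reported here by name. The members and lists were chosen with earlier results of these data known. Alternatives were other pseudocounts, floors, folds and scalings, whole steps, the authors' log2, and lists without shared genes.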

Additional observations from a re-analysis of the deposited data

How the results depend on the processing

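Of 110 recomputed values, 96 stayed within the tolerances (0.1 on the log2 scale, 1.5 times for a count), 14 moved and 0 reversed. The label of reversed was open only to log2 values of at least 1 in size, here that of Crabp2 alone, and not to counts. No log2 ratio or median changed sign, though rescaling to a median ratio of 1 and the whole steps could hardly move a ratio. The log2 ratio of Crabp2 was −2.13 with a pseudocount of 10. With a floor of 250, 0 members were at least 2-fold lower, since Crabp2 lies under it. The count of all genes past 2-fold was 551 higher and 470 lower without a floor, 105 and 53 with a floor of 250, 1014 and 835 at 1.5-fold, and 23 and 18 at 4-fold. The median of the retinol carriers was −0.46 without a floor and −0.40 without shared genes. The median of the retinoic acid responsive genes was 0.14 with a floor of 250 and 0.15 without the members and shared genes. No paired analysis was possible because each group has 1 library. Leaving out a replicate was not possible for the same reason, and the precision of low values such as those of Crabp2 cannot be given without the depth.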

Other observations

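The genes next to Crabp2 on its chromosome (RefSeq order, coding genes with a value, chosen after seeing the data) had ratios in both directions, none as low as that of Crabp2. On one side, Isg20l2 (log2 ratio 0.27), Rrnad1 (0.25) and Mrpl24 (−0.01) were level or slightly higher in the ID2 library. On the other side, Nes, an intermediate filament gene of neural progenitors, was at 231 in the ID2 library and 425 in the control library (−0.88). Bcan, a brain proteoglycan gene, was at 227 in the ID2 library and 364 in the control library (−0.68), and Gpatch4, the gene after it, was at 1048 in the ID2 library and 466 in the control library (1.17). Nes is also among the 4 neural markers read above, of which 2 were higher and 2 lower. Of the higher ones, Sox1 was at 782 in the ID2 library and 386 in the control library (1.02).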
